A study of Mus musculus with 12 samples.

Results

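Platelet alpha-granule genes were followed in bone marrow haematopoietic stem cells (HSCs) from Runx1 knockout (KO) and control (WT) mice. The set held 10 genes chosen by symbol: Pf4, Ppbp, Thbs1, Mmrn1, F13a1, Clu, Nrgn, Treml1, Selp and Cd9. All 10 had a row among the 35869 genes of the tables, and all 10 were among the 19395 genes that passed the low-count filter and were tested. The HSCs were sorted into cells with surface CD41 (CD41pos) and without it (CD41neg). CD41 is the integrin alpha-IIb chain made from Itga2b. KO mice carried floxed Runx1 alleles and the MxCre1 transgene, and WT mice carried the same floxed alleles without MxCre1. The Mx1 promoter that drives this Cre answers to interferon and is not specific to HSCs. Interferon was induced in both genotypes by injecting poly(I:C), a synthetic double-stranded RNA, 4 times, and the cells were taken 4 weeks later, so the WT groups share this exposure. No source used here gives the ages of the mice. Each of the 4 groups (CD41pos KO, CD41pos WT, CD41neg KO, CD41neg WT) had 3 libraries.

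Alpha granules are the most numerous storage organelles of platelets, and megakaryocytes fill them with proteins that are released when platelets are activated. Their contents include chemokines, adhesive and clotting proteins, and receptors of the granule membrane that reach the platelet surface upon release. RUNX1 is a transcription factor of blood stem cells and megakaryocytes, and in people inherited loss of 1 RUNX1 copy causes a platelet disorder in which platelet factor 4 is low. A part of the stem cells carries megakaryocyte and platelet transcripts, and CD41 is 1 of the surface proteins by which such cells are recognised. The set is not uniform. Treml1, Selp and Cd9 encode membrane proteins. The factor XIII subunit from F13a1 is known mainly from the platelet cytosol, and neurogranin from Nrgn is a calmodulin-binding protein inside the cell.

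The libraries held between 44108035 and 58946457 counts each. Levels are given as counts scaled to library size (CPM) after TMM normalisation, and changes as log2 fold changes ± SE with the adjusted p of edgeR's quasi-likelihood test over all 19395 genes, at a threshold of 0.05. Nothing in the labels says that every library came from its own animal, so the p-values reflect how far libraries of a group differ, and a part of that may be technical. Itga2b, the gene of the sorted protein, was higher in the CD41pos gate in both genotypes (log2 fold change 2.18 ± 0.29 in KO, adjusted p = 0.00181, and 2.59 ± 0.29 in WT, adjusted p = 0.000906). The Runx1 gene total was higher in KO than in WT libraries of both gates (log2 fold change 1.13 ± 0.15 in CD41pos and 1.03 ± 0.15 in CD41neg). Reads summed over a whole gene do not test whether the floxed part was deleted. In WT, 4 of the 6 libraries (CD41pos WT 1 and WT 4, CD41neg WT 2 and WT 4) stood apart from the other 8 libraries: they held 18.6 to 27.7 CPM of the immediate early gene Nr4a1, against 237 to 396 CPM. CD41pos WT 3 is therefore the only WT library of its gate that resembled the KO libraries in this respect, and results that turn on it are given with and without the 4 libraries. KO 1 and KO 3 held the Y-linked transcript Ddx3y (83.4 to 103 CPM) with about 1 CPM of Xist. KO 2 held Xist with less than 1 CPM of Ddx3y in both gates. All 6 WT libraries held Xist, and 4 of them also held Ddx3y (11.2 CPM in CD41pos WT 3, 22.5 CPM in CD41pos WT 4, 19.4 CPM in CD41neg WT 2 and 38.9 CPM in CD41neg WT 3). Ddx3y was at 0 in CD41neg WT 4. These WT libraries thus held transcripts of both sexes and need not each stand for 1 animal, and sex was not balanced between the genotypes. Library numbers ran from 1 to 10 in WT and from 13 to 22 in KO, so library order and genotype cannot be told apart. A fit with a Y-linked covariate is among the alternatives given below. With sex unbalanced between the genotypes and mixed in WT libraries, it does not fully separate sex from genotype. The part of library order in the differences between KO and WT was not tested.

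The promoters of Pf4, Ppbp and Treml1 are shown first. Pf4 and Ppbp are neighbours on chromosome 5, and only Pf4 passed the test for KO against WT in CD41pos HSCs. Their fold changes were not tested against each other. Treml1 had the most stable KO difference. Ppbp (chromosome 5, 90768518 to 90770063, plus strand, GRCm38/mm10, GENCODE vM21) ends 2371 bases before Pf4 begins (90772435 to 90773383, plus strand). The Treml1 gene spans 48359916 to 48367176 of chromosome 17 and is also read from the plus strand. Each sequence is the 250 bases before the RefSeq start (GRCm38.p6), read 5′ to 3′ on the plus strand. Capitals mark the letters CTTCC, which are GGAAG, the core read by ETS-family factors, on the opposite strand.
Pf4, chr5:90772185-90772434: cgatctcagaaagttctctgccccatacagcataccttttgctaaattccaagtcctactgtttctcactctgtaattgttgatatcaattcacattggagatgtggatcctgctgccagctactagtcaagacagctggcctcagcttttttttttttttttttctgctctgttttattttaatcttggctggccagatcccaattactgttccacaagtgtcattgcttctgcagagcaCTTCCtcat
Ppbp, chr5:90768268-90768517: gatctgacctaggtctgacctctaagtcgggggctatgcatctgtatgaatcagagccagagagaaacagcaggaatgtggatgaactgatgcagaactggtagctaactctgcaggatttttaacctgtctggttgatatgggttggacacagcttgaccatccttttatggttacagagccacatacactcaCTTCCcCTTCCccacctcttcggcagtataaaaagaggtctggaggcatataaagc
Treml1, chr17:48359666-48359915: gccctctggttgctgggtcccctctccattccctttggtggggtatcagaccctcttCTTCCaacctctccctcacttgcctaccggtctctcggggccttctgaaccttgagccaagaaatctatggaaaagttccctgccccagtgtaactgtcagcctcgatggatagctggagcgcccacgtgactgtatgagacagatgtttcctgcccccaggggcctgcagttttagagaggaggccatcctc

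Promoter entries were found for 8 of the 10 genes, all but Thbs1 and Clu. The letters TGTGGT and TGCGGT, read by RUNX factors, were searched on both strands in the 250 bases before the start and were in none of the 8, whereas 18.6% of 32851 promoter windows of the same length held at least 1 of them. GGAAG, which overlaps none of the other letters, was in all 8, beside 64.1% of all windows. The GATA letters TGATAA were in Mmrn1 alone, beside 7.94% of all windows, and AGATAA was in none of the 8. The Mmrn1 window (chr6:60944067-60944316) lies inside the gene as annotated by GENCODE vM21 (60924976 to 60989378), so its letters may not lie before the gene. Windows of Nrgn and Cd9 also lie in part within their annotated genes. F13a1 had 2 starts, and the windows of both held GGAAG. The window of start 1 (chr13:37050245-37050494) lies outside the annotated gene, and that of start 2 (chr13:37049214-37049463) lies inside it. With the first 50 bases of the transcript added, a window chosen after the first result was seen, AGATAA was also in Pf4, beside 11.2% of all such windows. A match describes letters in a window and is not evidence of binding, and the absence of a match covers only these letters and bases.

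Levels between genes were compared per length, in the deposited TPM values (transcripts scaled to length and library size). Pf4, Cd9 and Nrgn together made up 75.9% to 96.0% of the summed TPM of the 10 genes in every library. The sum was 1947 to 2115 TPM in CD41pos KO and 2504 to 2641 TPM in CD41pos WT libraries, and it was 549.9 to 718 TPM in CD41neg KO and 299.6 to 533.4 TPM in CD41neg WT libraries. In CPM, which is not divided by length, the CD41pos sum had the opposite direction, also without overlap: 1285 to 1482 CPM in CD41pos KO and 1105 to 1113 CPM in CD41pos WT libraries. The direction of the sum thus depends on the unit. Pf4 averaged 599 ± 63.5 TPM in CD41pos KO and 1320 ± 121 TPM in CD41pos WT libraries (SD, n = 3 each), and by mean TPM it ranked 291 in CD41pos KO and 88 in CD41pos WT among 35869 genes. Its share of the sum was 25.4% to 32.3% in CD41pos KO, against 48.2% to 55.6% in CD41pos WT libraries, and these ranges do not overlap. Cd9 ranked 283 in CD41pos KO and 282 in CD41pos WT. Ppbp, next to Pf4 in the genome, was far lower per length, with 20.7 ± 10.9 TPM in CD41pos KO and 15.9 ± 4.93 TPM in CD41pos WT. Pf4 exceeded Ppbp 18.2- to 55.8-fold in CD41pos KO libraries and 60.4- to 115-fold in CD41pos WT libraries.

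**Figure D1:**
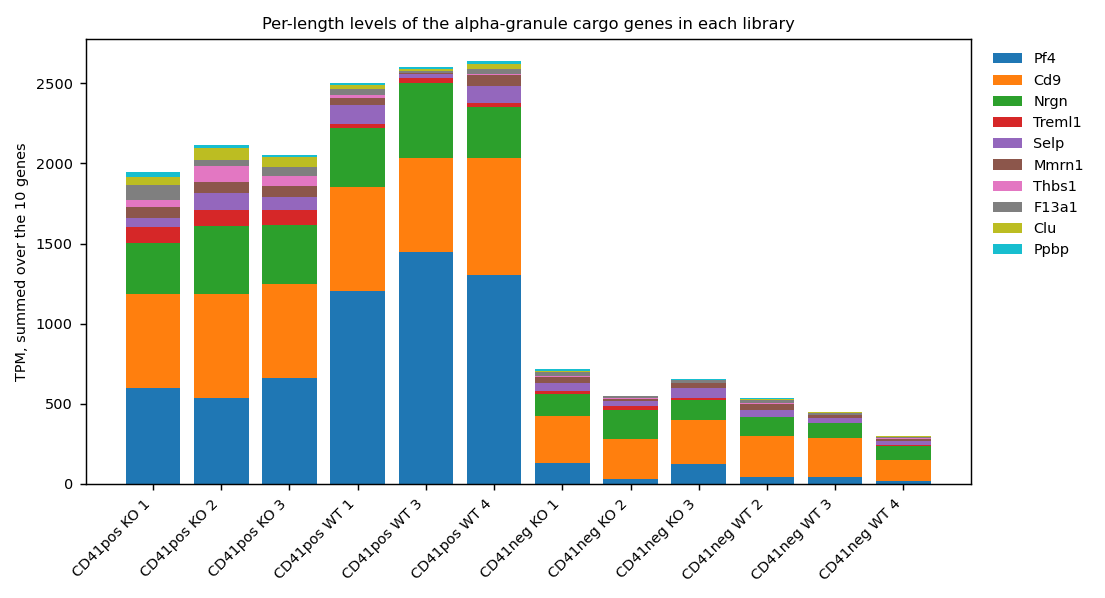
TPM of the 10 alpha-granule genes stacked for each of the 12 libraries (vertical axis, TPM summed over the genes; horizontal axis, libraries by group). The CD41pos KO bars reach 1947 to 2115 TPM and the CD41pos WT bars 2504 to 2641 TPM, and the blue Pf4 part is smaller in every CD41pos KO bar. In CPM the summed level runs the other way (1285 to 1482 CPM in CD41pos KO, 1105 to 1113 CPM in CD41pos WT).

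These genes differed between KO and WT in both directions in CD41pos HSCs. Treml1, Thbs1 and Clu were higher in KO, Pf4 was lower, and the other 6 did not pass the test. That is 4 of 10, beside 17.1% of all genes tested, and the median log2 fold change of the 10 genes was 0.44, beside -0.08 over all genes. The libraries of KO and WT did not overlap for 6 of the 10, beside 44.3% of all genes, and F13a1 is among the 6 only by a margin below the precision printed here. In bulk libraries, more or fewer cells that carry a transcript and more or less of it per cell cannot be told apart.

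Of the chemokines, Pf4 was lower in KO and Ppbp did not pass. Pf4, platelet factor 4 or CXCL4, a chemokine that binds heparin, had 105, 93.5 and 113 CPM in CD41pos KO libraries 1 to 3, against 222, 357 and 232 CPM in CD41pos WT libraries 1, 3 and 4. Every KO library lay below every WT library, and the highest value was that of WT 3. The log2 fold change was -1.38 ± 0.41 (adjusted p = 0.0372). The call was lost in 4 of the 12 fits that each left out 1 library (CD41pos KO 1, KO 2, KO 3 or WT 3), with an adjusted p of at most 0.123 (without CD41pos KO 2), and in limma fits on log2(TPM + 1) and log2(TPM + 0.1). It was also lost with the label number as a replicate block (adjusted p = 0.0878). Ppbp, the precursor of the neutrophil-attracting chemokine CXCL7, had 10.7, 5.56 and 3.74 CPM in CD41pos KO libraries, against 4.59, 5.74 and 7.08 CPM in CD41pos WT libraries. The groups overlapped, with KO on both sides of the WT range, and the log2 fold change was 0.20 ± 0.61 (adjusted p = 0.848).

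Among the adhesive and clotting proteins, Thbs1 had the highest fold difference. Thbs1 (chromosome 2, 118111876 to 118127133, plus strand) encodes thrombospondin 1, a matrix protein that binds CD36 and CD47. It had 160, 344 and 203 CPM in CD41pos KO libraries, against 64.7, 4.88 and 14.9 CPM in CD41pos WT libraries. Every KO library was above every WT library, and the WT libraries spread widely, with WT 3 the lowest. The log2 fold change was 3.06 ± 0.82 (adjusted p = 0.0264). With 1 library left out, the value ran from 2.59 (without CD41pos WT 3) to 4.57 (without CD41pos WT 1). The call was lost in 3 of these 12 fits (without CD41pos KO 2, KO 3 or WT 4), with an adjusted p of at most 0.0889, and in the fit of the CD41pos libraries alone. With the label number as a replicate block it was lost as well (adjusted p = 0.0552).

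Mmrn1 (chromosome 6, 60924976 to 60989378, plus strand) encodes multimerin 1, a carrier of factor V in the granule. It had 194, 186 and 193 CPM in CD41pos KO libraries, against 135, 24.6 and 198 CPM in CD41pos WT libraries. The KO libraries were nearly equal, and the WT libraries reached from far below them to just above them. F13a1 (chromosome 13, 36867178 to 37050244, minus strand), the A subunit of the clot-linking enzyme factor XIII, had 213, 90.5 and 129 CPM in CD41pos KO libraries, against 90.5, 27.2 and 85.4 CPM in CD41pos WT libraries. The lowest KO and the highest WT library were equal at this precision. Neither gene passed the test (log2 fold change 0.68 ± 0.62, adjusted p = 0.454 for Mmrn1, and 1.09 ± 0.52, adjusted p = 0.151 for F13a1).

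Clu (chromosome 14, 65968483 to 65981547, plus strand) encodes clusterin, a secreted chaperone. It had 77.2, 120 and 96.2 CPM in CD41pos KO libraries, against 44.4, 40.4 and 45.5 CPM in CD41pos WT libraries. All KO libraries were above all WT libraries, and the WT libraries were close to each other. The log2 fold change of 1.17 ± 0.37 passed only just (adjusted p = 0.0499), and the call was lost in 10 of the 12 fits that left out 1 library (all but those without CD41neg KO 1 or KO 2), with an adjusted p of at most 0.164 (without CD41pos KO 2). The label number as a replicate block (adjusted p = 0.12) and limma on log2(TPM + 0.1) (adjusted p = 0.0731) also ended it. Nrgn (chromosome 9, 37544492 to 37552904, minus strand) had 124, 163 and 138 CPM in CD41pos KO libraries, against 150, 253 and 126 CPM in CD41pos WT libraries. The groups overlapped, and WT 3 alone was above all KO libraries. Its log2 fold change was -0.32 ± 0.24 (adjusted p = 0.36).

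Of the membrane proteins, Treml1 changed most clearly. Treml1 encodes TLT-1, a receptor stored in the alpha-granule membrane that binds fibrinogen. It had 133, 142 and 130 CPM in CD41pos KO libraries, against 36.1, 59.9 and 35.1 CPM in CD41pos WT libraries. Every KO library was above the highest WT library, and the log2 fold change was 1.63 ± 0.25 (adjusted p = 0.00323). This call held in all 12 fits that left out 1 library, with adjusted p-values of 0.00211 to 0.0194. Selp (chromosome 1, 164115264 to 164150026, plus strand) encodes P-selectin, through which activated platelets bind leukocytes. It had 57.7, 109 and 79.5 CPM in CD41pos KO libraries, against 125, 38.3 and 105 CPM in CD41pos WT libraries. The KO values lay within the WT range, and the log2 fold change was -0.13 ± 0.37 (adjusted p = 0.837). Selp shares 438 exonic bases with Gm16548 on the opposite strand, which reached 43.4 TPM, and the library kit does not mark strand, so reads of the pair cannot be told apart. Cd9 (chromosome 6, 125460266 to 125494791, minus strand), a tetraspanin of the platelet surface and granule membrane, had 209, 229 and 202 CPM in CD41pos KO libraries, against 240, 294 and 262 CPM in CD41pos WT libraries. All KO libraries were below all WT libraries, by a log2 fold change of -0.32 ± 0.17 that did not pass (adjusted p = 0.203).

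**Figure D2:**
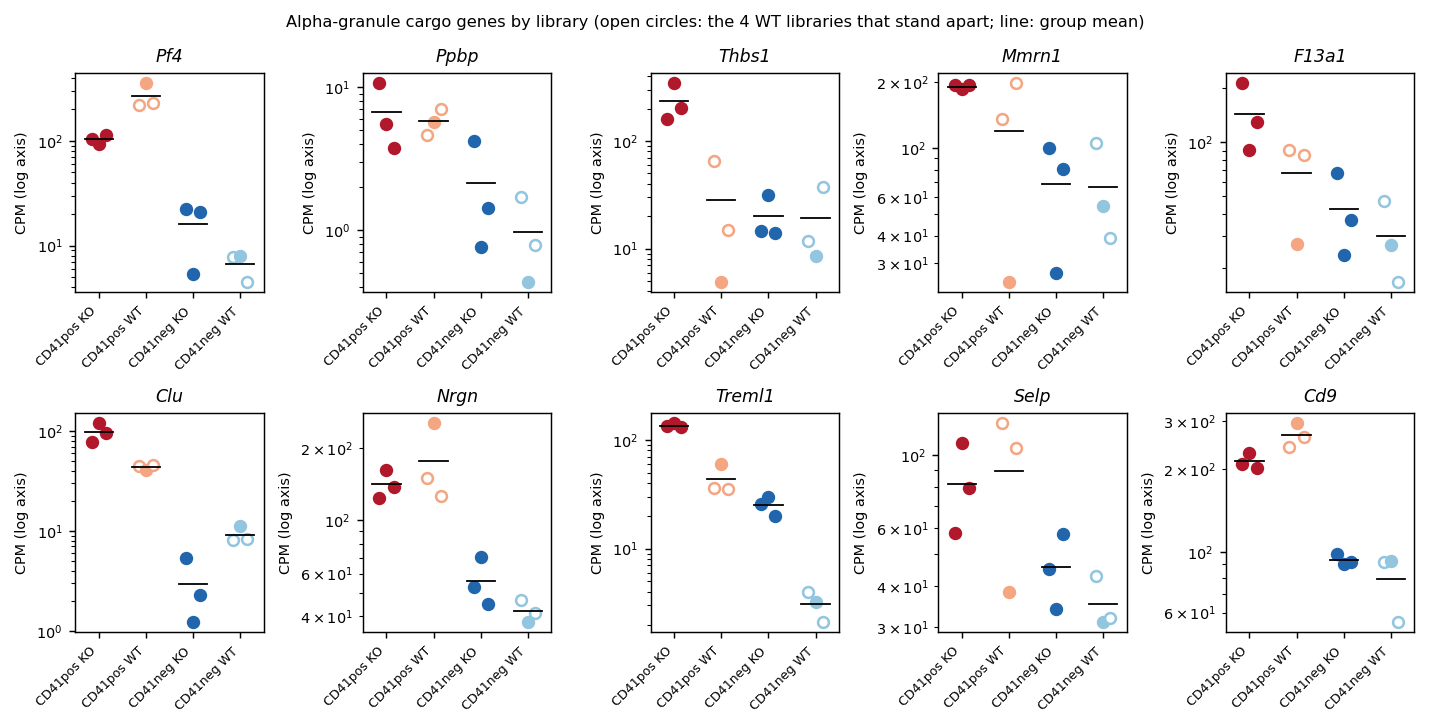
CPM of each gene in each library (vertical log axes; 4 groups along the horizontal axis; black line, group mean; open circles, the 4 WT libraries that stood apart). Pf4 is lower, and Treml1, Thbs1 and Clu are higher, in all CD41pos KO than in all CD41pos WT libraries, and Thbs1, Selp, Mmrn1 and F13a1 have their lowest CD41pos value in CD41pos WT 3, the filled CD41pos WT circle.

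The 4 WT libraries that stood apart bear on several of these values. With a term for them in the model, Pf4 (-1.69 ± 0.46, adjusted p = 0.0249), Thbs1 (4.98 ± 0.91, adjusted p = 0.00621) and Treml1 (1.36 ± 0.28, adjusted p = 0.00892) kept their calls, and Clu did not (1.07 ± 0.49, adjusted p = 0.131). Without the 4 libraries, 1 WT library was left in each gate, which was taken to vary like the other groups. In that fit 8 of the 10 genes were called, beside 39.4% of all genes, whereas the fit of all libraries called 4 of the 10, beside 17.1% of all genes. Thbs1 (5.67 ± 0.79), Mmrn1 (3.04 ± 0.68), F13a1 (2.49 ± 0.69), Treml1 (1.26 ± 0.21) and Selp (1.18 ± 0.39) were then higher in CD41pos KO, and Pf4 (-1.70 ± 0.56), Nrgn (-0.76 ± 0.23) and Cd9 (-0.38 ± 0.10) were lower. Selp thus turned from slightly lower to higher, and its adjusted p was 0.0448. These values rest on CD41pos WT 3 alone, the library with the lowest Thbs1, Mmrn1, F13a1 and Selp of the 6 CD41pos libraries and the highest Pf4, Nrgn and Cd9.

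**Figure D3:**
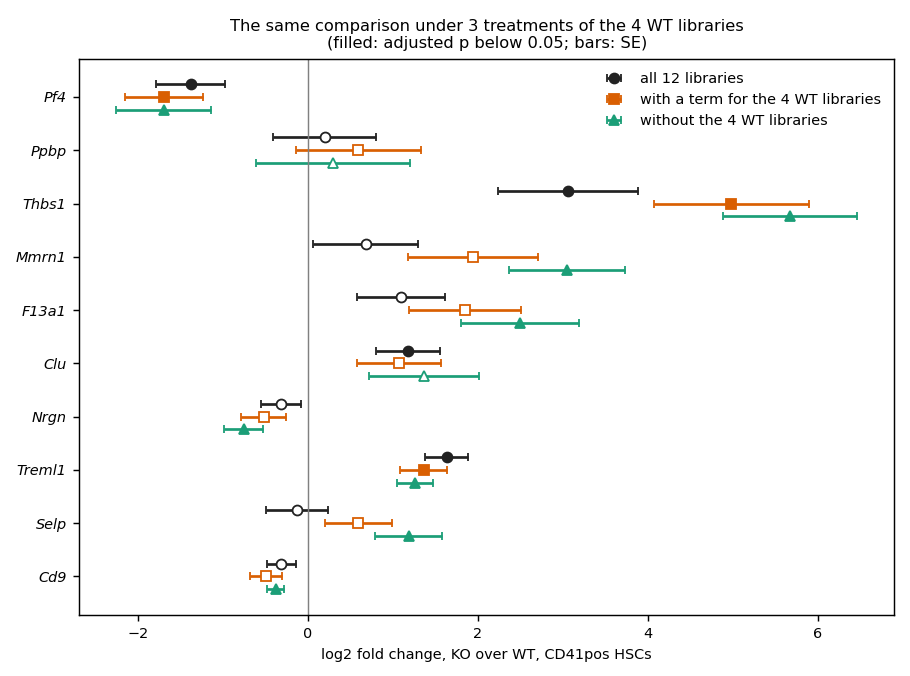
Log2 fold change of KO over WT in CD41pos HSCs (horizontal axis; bars, SE; filled, adjusted p below 0.05) for each gene under 3 treatments of the 4 WT libraries that stood apart. Treml1, Thbs1 and Pf4 are filled under all 3, while Selp moves from -0.13 with all libraries to 1.18 without the 4.

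In CD41neg HSCs, Treml1 was higher and Clu was lower in KO than in WT, and the other 8 genes did not pass the test. That is 2 of 10, beside 7.82% of all genes, and the same 2 were the only ones without overlap between KO and WT, beside 35.5% of all genes. The median log2 fold change of the 10 genes was 0.39, beside -0.03 over all genes. Treml1 had 25.7, 29.6 and 20.05 CPM in CD41neg KO libraries, against 3.98, 3.25 and 2.11 CPM in CD41neg WT libraries. Every KO library was above every WT library, with a log2 fold change of 3.01 ± 0.27 (adjusted p = 0.000409). By TPM, Treml1 averaged 18.7 ± 3.01 in CD41neg KO and 2.10 ± 0.755 in CD41neg WT (SD, n = 3 each), the lowest mean of the 10 genes in that WT group. The adjusted p stayed between 0.000159 and 0.0036 when any 1 library was left out. Clu had 5.31, 1.22 and 2.30 CPM in CD41neg KO libraries, against 8.03, 11.1 and 8.31 CPM in CD41neg WT libraries. Every KO library was below every WT library, the reverse of the CD41pos gate, and the log2 fold change was -1.64 ± 0.39 (adjusted p = 0.029). Without CD41neg KO 1 it was -2.38. With the label number as a replicate block the call was lost (adjusted p = 0.0755). This call was lost in 4 of the 12 fits that left out 1 library (CD41neg KO 2, KO 3, WT 3 or WT 4), with an adjusted p of at most 0.107 (without CD41neg KO 3), in the fit without the 4 WT libraries that stood apart (adjusted p = 0.086), in both limma fits on TPM and in the fit of the CD41neg libraries alone.

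Pf4 had 22.1, 5.40 and 20.8 CPM in CD41neg KO libraries, against 7.80, 7.88 and 4.47 CPM in CD41neg WT libraries. KO 1 and KO 3 were above the WT range and KO 2 was inside it, and the log2 fold change of 1.26 ± 0.42 did not pass (adjusted p = 0.0808), though it did in DESeq2 and without the low-count filter. KO 2 is also the KO animal label with Xist. The KO libraries had the same order for Mmrn1, with 99.9, 26.9 and 80.2 CPM in CD41neg KO libraries, against 106, 54.4 and 38.9 CPM in CD41neg WT libraries. F13a1 had 67.3, 23.6 and 36.7 CPM in CD41neg KO libraries, against 47.1, 26.8 and 16.7 CPM in CD41neg WT libraries. Both genes overlapped between the genotypes, with log2 fold changes of 0.06 ± 0.61 for Mmrn1 and 0.49 ± 0.51 for F13a1.

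Ppbp was low, with 4.21, 0.757 and 1.43 CPM in CD41neg KO libraries, against 1.70, 0.431 and 0.786 CPM in CD41neg WT libraries. Thbs1 had 14.6, 31.8 and 13.9 CPM in CD41neg KO libraries, against 11.9, 8.63 and 37.6 CPM in CD41neg WT libraries. Neither separated the genotypes, with log2 fold changes of 1.12 ± 0.64 for Ppbp and 0.05 ± 0.77 for Thbs1. KO 2 had the highest Thbs1 of the KO libraries in both gates. Nrgn had 52.5, 70.1 and 44.96 CPM in CD41neg KO libraries, against 46.6, 37.7 and 41.0 CPM in CD41neg WT libraries. Selp had 45.1, 33.9 and 57.4 CPM in CD41neg KO libraries, against 42.9, 31.0 and 31.9 CPM in CD41neg WT libraries. Cd9 had 98.2, 90.3 and 91.4 CPM in CD41neg KO libraries, against 91.5, 92.1 and 55.4 CPM in CD41neg WT libraries. All 3 overlapped between the genotypes, and their log2 fold changes were 0.42 ± 0.24, 0.37 ± 0.37 and 0.23 ± 0.17 in that order.

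**Figure D4:**
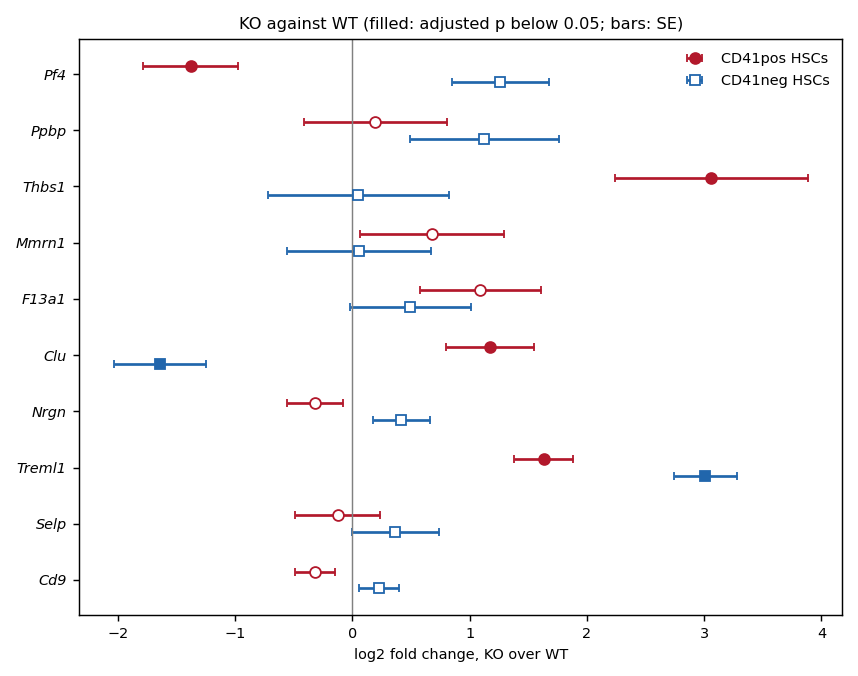
Log2 fold change of KO over WT (horizontal axis; bars, SE; filled, adjusted p below 0.05) for each gene in CD41pos (circles) and CD41neg (squares) HSCs. Treml1 is filled to the right of 0 in both gates, and Clu is at 1.17 in CD41pos and -1.64 in CD41neg.

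Whether the KO difference itself depended on the gate was tested as the interaction of genotype and gate. None of the 10 genes passed in edgeR's quasi-likelihood test, and neither did any of the 19395 genes (0% called, 1093 genes at an unadjusted p below 0.05, 72 genes called by DESeq2, and 7 and 26 by limma on log2(TPM + 1) and log2(TPM + 0.1)). The sizes are given here as estimates. For Clu it was 2.81 ± 0.54 on the log2 scale (unadjusted p = 0.000212, adjusted p = 0.452), and for Pf4 it was -2.64 ± 0.58 (unadjusted p = 0.000634, adjusted p = 0.585). DESeq2 called both. Treml1 was higher in KO in both gates, and its interaction estimate was -1.38 ± 0.35 (adjusted p = 0.663). For Thbs1 the estimate was 3.01 ± 1.10 (adjusted p = 0.838). Without the 4 WT libraries that stood apart, 4 of the 10 genes were called (Thbs1, Clu, Treml1 and Nrgn), in a fit that called 17.9% of all genes.

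CD41pos HSCs held more of most alpha-granule transcripts than CD41neg HSCs in both genotypes. All 10 genes had a positive log2 fold change of CD41pos over CD41neg in KO and in WT. In KO 6 of 10 passed the test, beside 2.79% of all genes, and the median log2 fold change of the 10 genes was 1.70, beside -0.02 over all genes. In WT 6 of 10 passed, beside 5.59% of all genes, with a median of 1.91, beside 0.01 over all genes. The gate libraries did not overlap for 9 of 10 genes in KO, beside 29.9% of all genes, and for 6 of 10 in WT, beside 22.8%. These 2 comparisons use different libraries, and each shares its libraries with the KO comparisons above.

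Within KO, Clu averaged 97.9 ± 21.5 CPM in CD41pos and 2.94 ± 2.12 CPM in CD41neg libraries (SD, n = 3 each), a log2 fold change of 5.06 ± 0.44 (adjusted p = 0.000119), or 5.80 without CD41neg KO 1. Treml1 (2.43 ± 0.26, adjusted p = 0.00045), Cd9 (1.19 ± 0.17, adjusted p = 0.00304), Pf4 (2.69 ± 0.43, adjusted p = 0.00524), Nrgn (1.34 ± 0.24, adjusted p = 0.0115) and Thbs1 (3.55 ± 0.84, adjusted p = 0.0445) were also higher in CD41pos. F13a1 (1.76 ± 0.53), Mmrn1 (1.47 ± 0.63), Ppbp (1.64 ± 0.63) and Selp (0.85 ± 0.37) did not pass. Animal labels 1 to 3 are common to the KO libraries of the gates. With that label as a block for the KO libraries only, in a fit of all 12 libraries, the call for Thbs1 was lost (adjusted p = 0.06). With the label as a block in all 12 libraries, Thbs1 kept its call (adjusted p = 0.00397) and Nrgn lost it (adjusted p = 0.0567). That fit also paired the WT labels shared by the gates, for which there was no ground. Leaving out 1 library ended the call for Thbs1 in 8 of 12 fits (adjusted p up to 0.191, without CD41neg KO 3) and that for Nrgn in 3 of 12 (CD41neg KO 1 or KO 3, or CD41pos KO 2, up to 0.0692 without CD41neg KO 3). For Thbs1 the call held only without CD41neg WT 3 or WT 4 or without CD41pos WT 1 or WT 3.

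Within WT, Pf4 differed most, with 270 ± 75.4 CPM in CD41pos and 6.71 ± 1.95 CPM in CD41neg libraries (SD, n = 3 each), a log2 fold change of 5.33 ± 0.48 (adjusted p = 0.000178). Treml1 (3.81 ± 0.28, adjusted p = 4.14e-05), Cd9 (1.74 ± 0.18, adjusted p = 0.000399), Nrgn (2.08 ± 0.25, adjusted p = 0.0012), Clu (2.25 ± 0.39, adjusted p = 0.00781) and Ppbp (2.57 ± 0.66, adjusted p = 0.0412) were also higher in CD41pos. Selp (1.34 ± 0.37, adjusted p = 0.0561), F13a1 (1.17 ± 0.52), Mmrn1 (0.85 ± 0.62) and Thbs1 (0.54 ± 0.77) did not pass. Leaving out 1 library ended the call for Ppbp in 8 of 12 fits (adjusted p up to 0.121, without CD41neg WT 4), and it held only without CD41neg KO 1, KO 2 or WT 2 or CD41pos KO 1. Without CD41neg WT 2 its value was 3.26. Without the 4 WT libraries that stood apart the calls for Ppbp (adjusted p = 0.0741) and Clu (adjusted p = 0.129) were lost, and Thbs1 (-0.89), Mmrn1 (-1.21) and F13a1 (-0.05) turned to uncalled values below 0.

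**Figure D5:**
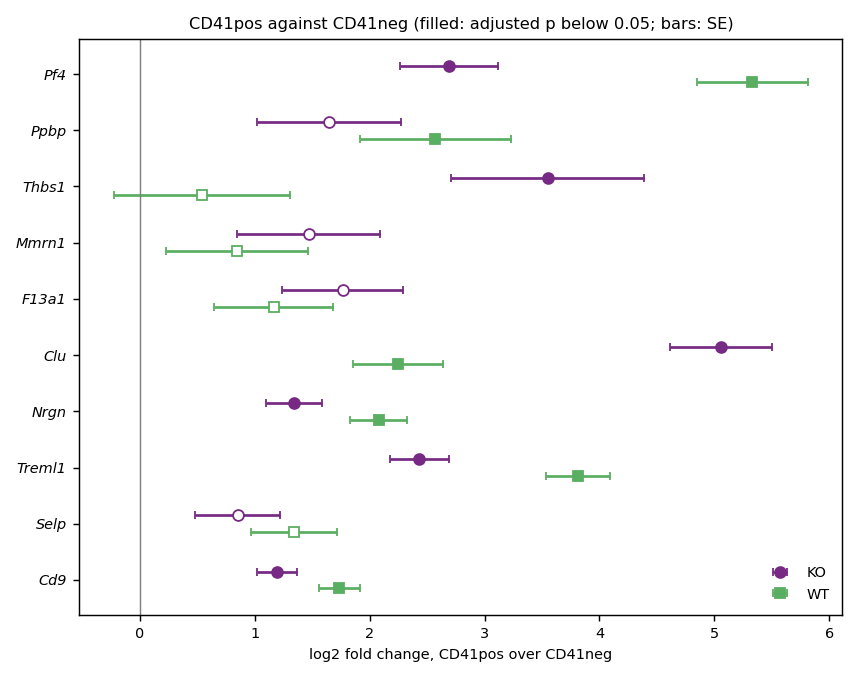
Log2 fold change of CD41pos over CD41neg (horizontal axis; bars, SE; filled, adjusted p below 0.05) for each gene within KO (circles) and within WT (squares). Every point lies right of 0, Clu is furthest right in KO at 5.06 and Pf4 in WT at 5.33.

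By mean CPM the 4 groups fell in the order CD41pos KO, CD41pos WT, CD41neg KO, CD41neg WT for Ppbp, Thbs1, Treml1, Mmrn1 and F13a1. Only for Treml1 among these did no neighbouring groups overlap. Pf4, Selp, Nrgn and Cd9 had CD41pos WT above CD41pos KO, then CD41neg KO and CD41neg WT. For Pf4 and Cd9 the first 3 groups were apart from each other and the CD41neg groups overlapped, and for Selp and Nrgn the only neighbours apart were CD41pos KO and CD41neg KO. Clu was the exception, with CD41pos KO, CD41pos WT, CD41neg WT and CD41neg KO in that order, and none of these neighbours overlapped.

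A list of 39 other genes of alpha-granule cargo and membrane, of which 34 passed the filter (Fga, Fgb, Fgg, Hrg and Timp1 did not), was read in the same fit. In CD41pos HSCs 5 of the 34 were higher in KO than in WT and 6 were lower, beside the 17.1% called over all genes, and the median log2 fold change was 0.00. Among those higher were Col18a1, the source of the angiogenesis inhibitor endostatin (1.905 ± 0.31, adjusted p = 0.00403), Ecm1, an extracellular matrix protein (0.91 ± 0.15, adjusted p = 0.00404), Jam3, a junction adhesion molecule (1.55 ± 0.30, adjusted p = 0.00774), and Pros1, the anticoagulant protein S (1.51 ± 0.35, adjusted p = 0.0155). Among those lower were the chemokine Cxcl12 (-3.26 ± 0.37, adjusted p = 0.0015), the protease inhibitors Serpine2 (-2.65 ± 0.38, adjusted p = 0.00271) and Serping1 (-2.48 ± 0.42, adjusted p = 0.00427), and the matrix protein Sparc (-2.78 ± 0.42, adjusted p = 0.00297).

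In CD41neg HSCs 2 of the 34 were higher in KO and 5 were lower, beside 7.82% over all genes, with a median of -0.19. Ecm1 (1.53 ± 0.15, adjusted p = 0.000637) and Itga2b (1.26 ± 0.28, adjusted p = 0.0223) were higher in KO. Cxcl12 (-4.41 ± 0.39, adjusted p = 0.000409), Serping1 (-4.24 ± 0.45, adjusted p = 0.00099), Sparc (-3.77 ± 0.43, adjusted p = 0.00136) and Serpine2 (-3.18 ± 0.40, adjusted p = 0.00222) were lower in KO in this gate too. Cxcl12 and Sparc also belong to a list of 18 marker genes of endothelial and stromal cells. That list summed to 176 to 214 CPM in CD41pos KO and 242 to 475 CPM in CD41pos WT libraries, and to 104 to 133 CPM in CD41neg KO and 296 to 1004 CPM in CD41neg WT libraries. The part of such cells in these differences was not tested.

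Between the gates, 8 of the 34 were higher in CD41pos and 1 lower within KO, beside 2.79% over all genes, and 10 were higher and 1 lower within WT, beside 5.59%. Itgb3, the beta-3 partner of CD41, was higher in both (3.505 ± 0.44 in KO, adjusted p = 0.00142, and 2.81 ± 0.43 in WT, adjusted p = 0.00394), as was Col18a1 (3.09 ± 0.33, adjusted p = 0.000469, and 2.09 ± 0.32, adjusted p = 0.00392). Pdgfb, a platelet growth factor chain, was higher within KO (2.61 ± 0.34, adjusted p = 0.00149), and Srgn, the proteoglycan that packs granule proteins, within WT (0.67 ± 0.12, adjusted p = 0.00834). At most 4 genes per direction and comparison are named here, and both genes went the same way in the other genotype. In WT, Pdgfb had 9.075 to 11.37 CPM in CD41pos and 3.02 to 5.048 CPM in CD41neg libraries. In KO, Srgn had 422.6 to 499.7 CPM in CD41pos and 354.0 to 410.7 CPM in CD41neg libraries. Aplp2, a relative of the amyloid precursor protein, was the 1 gene lower in CD41pos in each genotype (-1.19 ± 0.21 in KO, adjusted p = 0.00974, and -1.27 ± 0.21 in WT, adjusted p = 0.00612). Itga2b is on this list as well, and it encodes the protein used for the sort.

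Markers of megakaryocytes and platelets other than the 10 genes moved with them between the gates. Of 18 such markers 17 had a row and were tested, and 13 of the 17 were higher in CD41pos in each genotype, beside 2.79% of all genes in KO and 5.59% in WT. Itga2b, the gene of the sorted protein, is among the 13. Their summed level was 2952 to 3643 CPM in CD41pos KO and 1736 to 2100 CPM in CD41pos WT libraries, and it was 946 to 1130 CPM in CD41neg KO and 672 to 806 CPM in CD41neg WT libraries. Without Itga2b, 12 of 16 were higher in CD41pos in each genotype, and the sum was 1924 to 2375 CPM in CD41pos KO, 1185 to 1454 CPM in CD41pos WT, 733 to 872 CPM in CD41neg KO and 534 to 757 CPM in CD41neg WT libraries. None of the 17 was at 0 in all libraries of any group. Markers of granulocytes, monocytes and macrophages, another set of 18, summed to 2170 to 4601 CPM in CD41pos KO and 5484 to 6840 CPM in CD41pos WT libraries, and to 648 to 1743 CPM in CD41neg KO and 2340 to 3277 CPM in CD41neg WT libraries. The stem-cell markers (12 genes) summed to 1843 to 2071 CPM in CD41pos KO and 982 to 1905 CPM in CD41pos WT libraries, and to 1545 to 2505 CPM in CD41neg KO and 1287 to 1964 CPM in CD41neg WT libraries, so these ranges overlap between the genotypes. Erythroid markers went the other way between the gates: all 11 had a log2 fold change below 0 for CD41pos over CD41neg in each genotype. In KO 5 of 11 passed the test, beside 2.79% of all genes, and in WT 7 of 11 passed, beside 5.59%. The 11 erythroid markers summed to 961 to 1334 CPM in CD41pos KO and 2631 to 3243 CPM in CD41neg KO, and to 1069 to 2024 CPM in CD41pos WT and 3326 to 4033 CPM in CD41neg WT libraries. Markers of basophils and mast cells (11 genes, 10 tested) summed to 894 to 1081 CPM in CD41pos KO and 477 to 1339 CPM in CD41pos WT libraries, and to 968.5 to 1200.0 CPM in CD41neg KO and 681 to 1327 CPM in CD41neg WT libraries. Kit, which is also on the stem-cell list, made up a large part of these sums. It averaged 761 CPM in CD41pos KO and 465 CPM in CD41pos WT, and 985 CPM in CD41neg KO and 614 CPM in CD41neg WT. Called lower in KO than in WT were 4 of the 10 tested in CD41pos, beside 17.1% of all genes called in either direction, and 3 in CD41neg, beside 7.82%. None was called higher, though 5 of the 10 had a log2 fold change above 0 in each gate. The basophil proteases Prss34 and Mcpt8, picked here after their values were seen, were near 0 in KO. Prss34 averaged 0.634 CPM in CD41pos KO and 274 CPM in CD41pos WT, and 0.588 CPM in CD41neg KO and 241 CPM in CD41neg WT. Mcpt8 averaged 0.572 CPM in CD41pos KO and 93.9 CPM in CD41pos WT, and 0.208 CPM in CD41neg KO and 76.0 CPM in CD41neg WT. Tpsb2 was at 0 in both KO groups and in CD41neg WT. Other genes of this list had higher means in KO. Cpa3 averaged 84.2 CPM in CD41pos KO and 40.7 CPM in CD41pos WT, and 63.6 CPM in CD41neg KO and 31.2 CPM in CD41neg WT. Ms4a2 averaged 29.0 CPM in CD41pos KO and 14.2 CPM in CD41pos WT, and 9.89 CPM in CD41neg KO and 7.05 CPM in CD41neg WT. The part of cells of other types, or of stem cells at different stages, in the values of the 10 genes was not tested.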

How the data were processed

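HSC RNA (miRNeasy Micro kit) was made into libraries with the SMART-Seq v4 kit, which does not mark strand, per the labels' protocols. The submitters' processing notes name STAR 2.6.1e, featureCounts 1.6.2, FastQC 0.11.7, cutadapt 1.9.1 and the mm10 build. No settings or annotation release is given in the sources used here. As the starting point, the authors deposited a table of raw counts per gene, the basis of all main tests. The authors also deposited a TPM table, used for levels between genes and as an alternative unit.

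A single edgeR quasi-likelihood model with 4 group means took in the 12 libraries (edgeR 4.0.16, limma 3.58.1, R 4.3.3) with TMM scaling and filterByExpr. That filter left 19395 of 35869 genes. P-values are two-sided and were adjusted over the 19395 genes (Benjamini-Hochberg, threshold 0.05). SE was derived from the F statistic, and fold changes of low counts depend on edgeR's prior count. The fit was tested on simulated data, in which 2-fold changes were mostly missed at this number of libraries and 4-fold changes mostly found. The simulation gave all genes the same dispersion and changed only genes with high counts, in CD41pos KO alone. The spread of the real genes differs, so this recovery need not hold for them. The level of recovery taken as adequate was settled after those results were seen. Alternatives were DESeq2 1.42.0, its size factors, other filters, limma-trend on TPM (log2, pseudocount 1 or 0.1), fits of only the groups compared, blocks, a Y-linked covariate, the 4 WT libraries that stand apart as a term or left out, and leaving out each library in turn.

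Deviations from group means over 12692 genes correlated across gates within each KO label (0.43, 0.60 and 0.44). Different KO labels were not compared across the gates, so these values alone do not settle that the labels pair the samples. The main fit has no block. Shared WT labels gave 0.10 (WT 3) and -0.42 (WT 4), which gave no ground to pair them. Ddx3y was at 22.5 CPM in CD41pos WT 4 and at 0 in CD41neg WT 4. Label WT 4 thus did not name the same mouse or mix of mice in both gates. The alternative fit with the animal label as a block in all libraries paired the shared WT labels nevertheless. Its values for the gates in WT and for the interaction rest on that pairing. Its p-values for the gates in KO use a spread estimated in the same fit. Replicates were compared pairwise, and sampling noise did not account for the difference in any pair. The gene set, the lists and the 4 WT libraries were chosen with earlier results of these data known. Named were all 10 genes, up to 4 genes of the list of other alpha-granule genes in each direction and comparison with the smallest adjusted p, and Runx1 and Itga2b as checks. Nr4a1, Ddx3y, Xist, Prss34, Mcpt8, Tpsb2, Cpa3, Ms4a2 and Kit were chosen after their values were seen. Promoters and their coordinates are from RefSeq (GRCm38.p6), and gene coordinates are 1-based, from GENCODE vM21.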

Additional observations from a re-analysis of the deposited data

Results flagged for a closer look

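Clu was noted because its KO difference went in opposite directions in the gates: every CD41pos KO library was above every CD41pos WT library, and every CD41neg KO library was below every CD41neg WT library. KO and WT libraries did not overlap for 44.3% of all genes in CD41pos and 35.5% in CD41neg. The share of all genes that did so in opposite directions was not counted. Clu was picked by this pattern, so the interaction values below are not separate support for it. The interaction of genotype and gate was 2.81 ± 0.54 on the log2 scale. It did not pass in edgeR's quasi-likelihood test (unadjusted p = 0.000212, adjusted p = 0.452), and it passed in DESeq2 (adjusted p = 0.000404). Over the fits that each left out 1 library the estimate ran from 2.44 to 3.55. Groups of 3 libraries were not searched for single outlying libraries.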

How the results depend on the processing

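Of the 10 genes, 4 were called for KO against WT in CD41pos, 2 in CD41neg, 6 for the gates in KO, 6 in WT and 0 for the interaction; shares of all genes called by each fit follow in brackets. In CD41pos (17.1%) the count was 2 with limma on log2(TPM + 0.1) (10.8%), 1 with the label number as a replicate block (4.93%) and 8 without the 4 WT libraries that stood apart (39.4%). In CD41neg (7.82%) it was 1 with limma on log2(TPM + 0.1) (5.55%) and log2(TPM + 1) (6.42%), with only the groups compared (6.99%), with the label number as a replicate block (2.36%) and without those 4 libraries (8.72%). In WT (5.59%) it was 3 with the animal label as a block in all libraries (0.217%), a block that paired the WT labels shared by the gates. For the interaction (0%) it was 2 in DESeq2 (Pf4 and Clu; 0.371%), 1 with the animal block (Thbs1, adjusted p = 0.0197, the 1 gene called) and 4 without the 4 libraries (17.9%). Leaving out each library gave 1 to 4 in CD41pos, 1 to 3 in CD41neg, 4 to 7 in KO, 5 to 6 in WT and 0 to 1 for the interaction. The label number is shared by KO and WT mice only as a number (correlations of -0.28 to 0.10), and the block of the KO libraries changed no call in KO other than that of Thbs1, while the block in all libraries kept Thbs1 and ended Nrgn (adjusted p = 0.0567) in KO, and ended Ppbp, Clu and Nrgn in WT. The Y-linked covariate ended only the call for Clu in CD41pos.

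All values that turned were of genes that had not passed. For KO against WT in CD41pos, Selp was 0.21 and 0.20 in the limma fits with 0.1 and 1 added, 0.59 with the term for the 4 libraries and 1.18 without them, and Ppbp was -0.059 under the block. In CD41neg, Mmrn1 was -0.13 with the Y-linked covariate and -0.016 under the block. For the gates in WT, Thbs1 was -1.09 under the animal block and -0.89 without the 4 libraries, where Mmrn1 was -1.21 and F13a1 -0.046. The interaction of Selp was 0.63 without the 4 libraries. With 1 library left out, Ppbp ran from -0.32 to 0.48, Selp from -0.47 to 0.19 and Nrgn from -0.51 to 0.058 in CD41pos. In CD41neg, Mmrn1 ran from -0.31 to 0.58, F13a1 from -0.0019 to 0.99 and Thbs1 from -0.45 to 0.97. In WT, Thbs1 ran from -0.96 to 1.46, and the interaction of Ppbp ran from -1.60 to 0.031. The median log2 fold change of all genes in CD41pos was 0.11 in the limma fit with 0.1 added, beside -0.08 in the fit of counts, and in CD41neg it was 0.12 beside -0.03. The cause of these changes was not tested. Treml1 kept its call in every fit listed for KO against WT and for the gates. Ppbp was at 0.431 to 10.7 CPM over the libraries, and depth limits precision at such levels.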
